A study of Mus musculus with 37 samples.

Results

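Described here are 6 genes for which one parent of the BXD mouse strains is known to carry a copy gain or a loss-of-function variant: *Nnt*, *Glo1*, *Alad*, *Hc*, *Gpnmb* and *Klrd1*. They were chosen by gene symbol, and each was represented by 1 probe set among the 41155 analysed, so that 6 of 24657 named genes were followed. BXD mice are inbred strains derived from crosses of C57BL/6J and DBA/2J, so that every stretch of the genome in a strain comes from one parent or the other. Brown adipose tissue (BAT) was taken from males of 35 BXD strains and of both parents, which were kept on a Harlan chow diet for life, killed at 29 weeks after an overnight fast and perfused. RNA of about 5 mice per strain was mixed in equal parts and hybridised to 1 Affymetrix MoGene array, which gives 37 arrays with no replicate within a strain. No strain was treated or engineered, and the strain genotypes at the 6 genes were not analysed here.

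BAT is the fat depot that burns fuel to make heat, and it does so in mitochondria packed with iron-containing haem proteins. *Nnt* encodes the nicotinamide nucleotide transhydrogenase of the inner mitochondrial membrane, which makes NADPH for the removal of peroxides, and C57BL/6J carries a deletion of several of its exons. *Glo1* encodes glyoxalase 1, which removes the glycolytic by-product methylglyoxal, and DBA/2J carries a tandem duplication that spans *Glo1* and reaches into its neighbours *Btbd9* and *Dnah8*. *Alad* encodes aminolaevulinate dehydratase, the enzyme of haem synthesis that makes porphobilinogen, and DBA/2J carries extra copies of it. The other three genes act in immunity, and DBA/2J carries the loss variant in each. *Hc* encodes complement component C5, *Gpnmb* a transmembrane glycoprotein of macrophages and pigment cells, and *Klrd1* the CD94 subunit of receptors on natural killer cells. The loss variants lie within these genes, and the stretches that the array probes cover were not analysed here, so a probe set may or may not reach the altered part.

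Values are scores on a log-like scale that the authors rescaled to a mean of 8 and an SD of 2 on every array, and they are called units here. The log base was not given in the sources used here, so no difference was turned into a fold change. Olfactory receptor genes, which fat is not known to use, set a background limit of 7.94 units, the 95th percentile of their 1128 probe sets. The tissue label fitted its defining markers, since all 9 brown fat genes were above this limit and *Ucp1*, the heat-making uncoupling protein, lay between 14.82 and 15.69 units over the BXD strains. Skeletal muscle genes were also present at widely different levels, with a mean over 9 genes of 9.88 in BXD65 to 13.52 in BXD97. Liver genes stood out on 2 arrays, with a mean over 11 genes of 10.90 in BXD70 and 9.63 in DBA/2J against at most 8.0 in the other BXD strains and 7.44 in C57BL/6J. Of these 11 genes, 4 had a mean over the BXD strains above the background limit.

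The promoters of *Alad*, of its direct neighbour *Hdhd3* and of *Glo1* are shown because *Alad* and *Hdhd3* moved together and *Glo1* is the other gene with a known copy gain. Each run holds 250 bases before and 50 bases after the transcription start, from RefSeq on GRCm38.p6, written 5′ to 3′ on the minus strand. They lie at chr4:62519860-62520159 (*Alad*), chr4:62502151-62502450 (*Hdhd3*) and chr17:30612610-30612909 (*Glo1*). Capitals mark every match, on either strand, to the GC box GGGCGG, the CCAAT box CCAAT, the E-box CACGTG and the TATA box TATAAA, and adjoining capitals can be matches that overlap.
Alad: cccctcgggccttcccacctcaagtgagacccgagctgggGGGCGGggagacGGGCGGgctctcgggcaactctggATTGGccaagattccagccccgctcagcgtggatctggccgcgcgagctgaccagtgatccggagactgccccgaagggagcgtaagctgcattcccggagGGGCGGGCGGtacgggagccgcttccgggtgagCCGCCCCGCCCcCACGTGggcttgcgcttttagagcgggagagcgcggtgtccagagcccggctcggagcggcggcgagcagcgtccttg
Hdhd3: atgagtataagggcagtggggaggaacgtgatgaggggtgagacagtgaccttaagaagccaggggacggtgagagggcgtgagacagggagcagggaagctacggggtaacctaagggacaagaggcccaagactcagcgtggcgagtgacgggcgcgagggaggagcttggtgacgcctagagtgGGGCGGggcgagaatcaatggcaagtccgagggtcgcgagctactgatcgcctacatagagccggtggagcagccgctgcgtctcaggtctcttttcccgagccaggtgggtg
Glo1: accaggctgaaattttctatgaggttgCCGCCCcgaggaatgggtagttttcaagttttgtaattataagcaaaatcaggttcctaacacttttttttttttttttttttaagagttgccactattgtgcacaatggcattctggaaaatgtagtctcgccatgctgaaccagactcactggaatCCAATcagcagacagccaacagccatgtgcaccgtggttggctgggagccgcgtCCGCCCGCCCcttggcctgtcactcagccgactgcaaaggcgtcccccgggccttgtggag
The *Alad* promoter held 6 matches to the GC box, 1 to the CCAAT box and 1 to the E-box, and 71.3% of its bases were G or C. The *Hdhd3* promoter held 1 match to the GC box, and the *Glo1* promoter held 3 to the GC box and 1 to the CCAAT box. No TATA box letters were in any of these windows. Among 32851 promoters of the same length, 35.7% held the GC box, 37.4% the CCAAT box, 7.15% the E-box and 13.6% the TATA box. Holding a GC box or a CCAAT box is thus common, and holding the E-box is less so. These shares count promoters with at least 1 match and do not tell how common 6 matches are. A match is a description of the letters and not a bound site.

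The first question was how far both parents differed and on which side of the parental midpoint each BXD strain fell. DBA/2J and C57BL/6J differed by at least 1 unit for *Alad* and *Hc*, as they did for 2.44% of all probe sets, and for *Hc* both parents were under the background limit. *Glo1* and *Gpnmb* were higher in DBA/2J by 0.684 and 0.627 units, while *Nnt* and *Klrd1* differed by 0.052 and -0.069 units. Over all probe sets the median absolute difference was 0.182 units. With 1 array per parent these differences carry no replicate error. A split was called clean where at least 5 strains lay on each side of the midpoint and the gap between the sides was at least 15% of the strains' range. *Alad* was the only one of the 6 genes with a clean split, which 0.656% of all probe sets had.

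**Figure D1:**
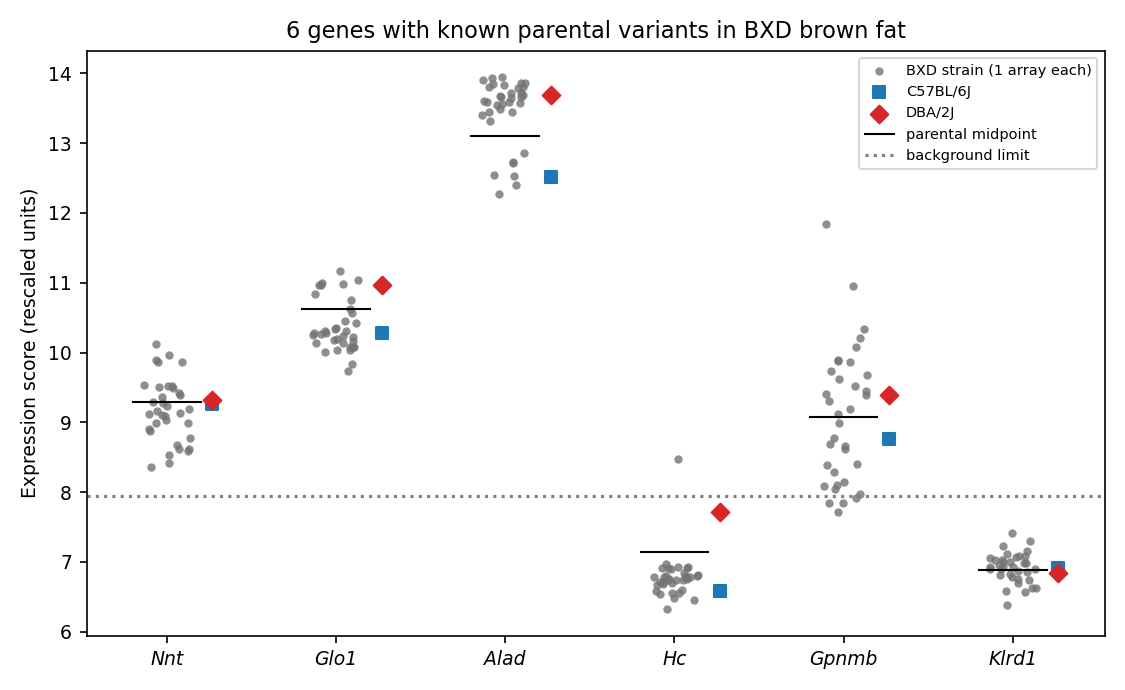
Expression scores (vertical axis, rescaled units) of the 6 genes, with 1 grey point per BXD strain, a blue square for C57BL/6J, a red diamond for DBA/2J, a short line at the parental midpoint and a dotted line at the background limit of 7.94 units. *Alad* falls into 7 strains below and 28 above an empty stretch of 0.45 units, *Hc* has BXD70 alone at 8.47, and *Klrd1* lies under the background limit in every strain.

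The strains fell into separate ranges of *Alad*, one around each parent. It measured 12.52 units in C57BL/6J and 13.69 in DBA/2J, a difference of 1.17 that exceeded 98.4% of all probe sets. Among the BXD strains the lowest value was 12.28 in BXD79, the median 13.60 and the highest 13.94 in BXD49. The 7 low strains were BXD79 at 12.28, BXD96 at 12.40, BXD81 at 12.53, BXD87 at 12.54, BXD55 at 12.71, BXD64 at 12.73 and BXD48 at 12.86. The other 28 strains lay between 13.31 and 13.94, with a median of 13.67. The midpoint sets the sides, so they cannot overlap in *Alad*, and the gap between them is what describes the split. The share on the DBA/2J side was 80.0% (exact 95% Clopper-Pearson interval 63.1% to 91.6%). The gap of 0.45 units was 27% of the range, and the split kept 28 and 7 strains under quantile normalization, median centring and with muscle regressed out.

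*Hdhd3*, a member of the haloacid dehalogenase-like family, lies next to *Alad* on chromosome 4 and moved with it. It measured 8.21 units in C57BL/6J and 9.26 in DBA/2J. In the 7 *Alad*-low strains *Hdhd3* ranged from 7.53 to 8.45 with a median of 8.05, and in the other 28 from 8.83 to 9.48 with a median of 9.02. *Hdhd3* was above the background limit of 7.94 units in 32 of 35 strains. The low strains BXD79, BXD48 and BXD96 were under it, at 7.53, 7.85 and 7.92. All 35 of 35 strains were on the same side for both genes. How many other probe sets part these strains in the same way was not counted. Within the sides no relation between the genes was detectable. The sides were set by *Alad* itself, so each holds only a part of its spread, and a relation within a side can go undetected. Pearson's *r* was 0.331 in the low strains (*n* = 7, rho = 0.143, exact two-sided permutation *p* = 0.479, adjusted *p* = 0.766 over 8 relations). It was 0.0939 in the high strains (*n* = 28, rho = 0.183, two-sided permutation *p* = 0.633, adjusted *p* = 0.844). Without the pair of strains farthest from the *Alad* median, *r* was 0.137 and 0.0645.

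**Figure D2:**
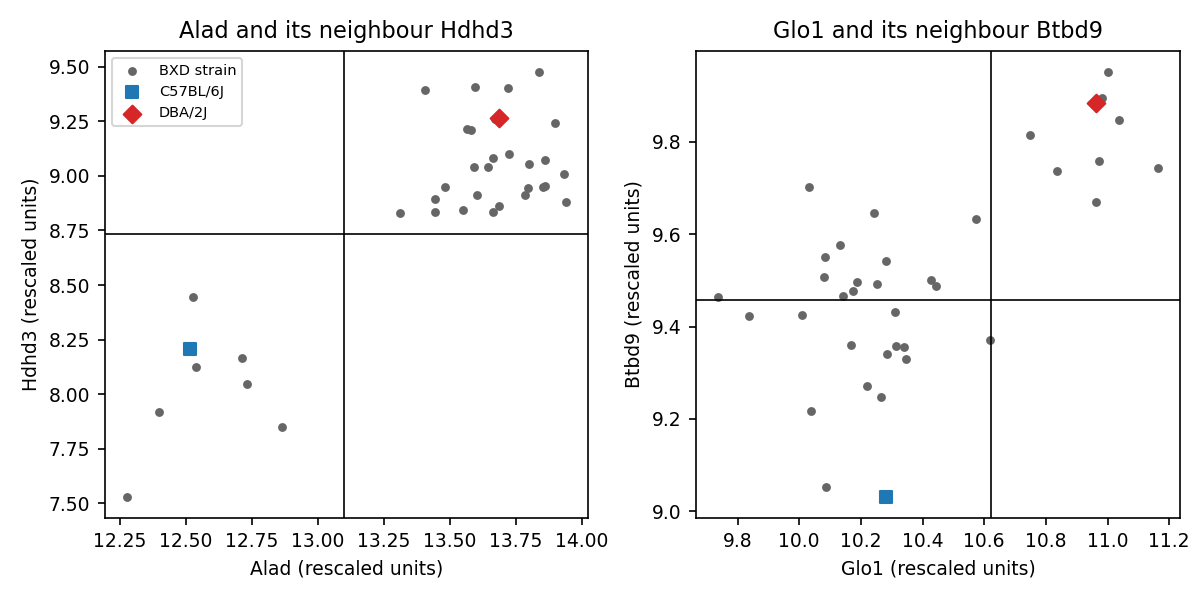
Each grey point is 1 BXD strain, the square C57BL/6J and the diamond DBA/2J, with lines at the parental midpoints. *Alad* against *Hdhd3* (left, rescaled units) leaves 2 quadrants empty, since 35 of 35 strains share a side, whereas *Glo1* against *Btbd9* (right) has 8 strains above both midpoints and 14 strains above that of *Btbd9* alone.

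Across the whole array, *Hdhd3* was also the single transcript that followed *Alad*. In limma with the *Alad* level as a continuous covariate, 1 of 41154 probe sets (0.00243%) passed an adjusted *p* of 0.05. *Hdhd3* was higher by 0.85 ± 0.09 (SE) units per unit of *Alad* (limma, Benjamini-Hochberg adjusted *p* = 3.29e-07, *n* = 35). With ranks of *Alad* in place of its values 0 transcripts passed in limma, and 3946 had an unadjusted *p* under 0.05. Where no transcript follows a gene, a share of 0.05 of the 41154 probe sets has such a *p* on average. Unadjusted counts here and below are therefore not calls and are to be read beside that share. Of the 5 protein-coding genes on each side of *Alad* in the RefSeq order, *Hdhd3* was the 1 that passed. *Pole3*, a DNA polymerase epsilon subunit and the neighbour on the other side, differed by 0.006 units between the parents and had a slope of 0.02 ± 0.05. *Bspry*, just beyond *Hdhd3*, had a slope of 0.11 ± 0.06. The transcripts of the remaining steps of haem synthesis did not pass the test against *Alad*. None of the 12 listed genes passed, among them *Alas1*, which starts the pathway (slope 0.06 ± 0.08), and *Fech*, which inserts the iron (0.05 ± 0.05). The median slope of these 12 genes was 0.006, beside 0.002 over all probe sets, and the haem-degrading *Hmox1* had -0.29 ± 0.16.

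**Figure D3:**
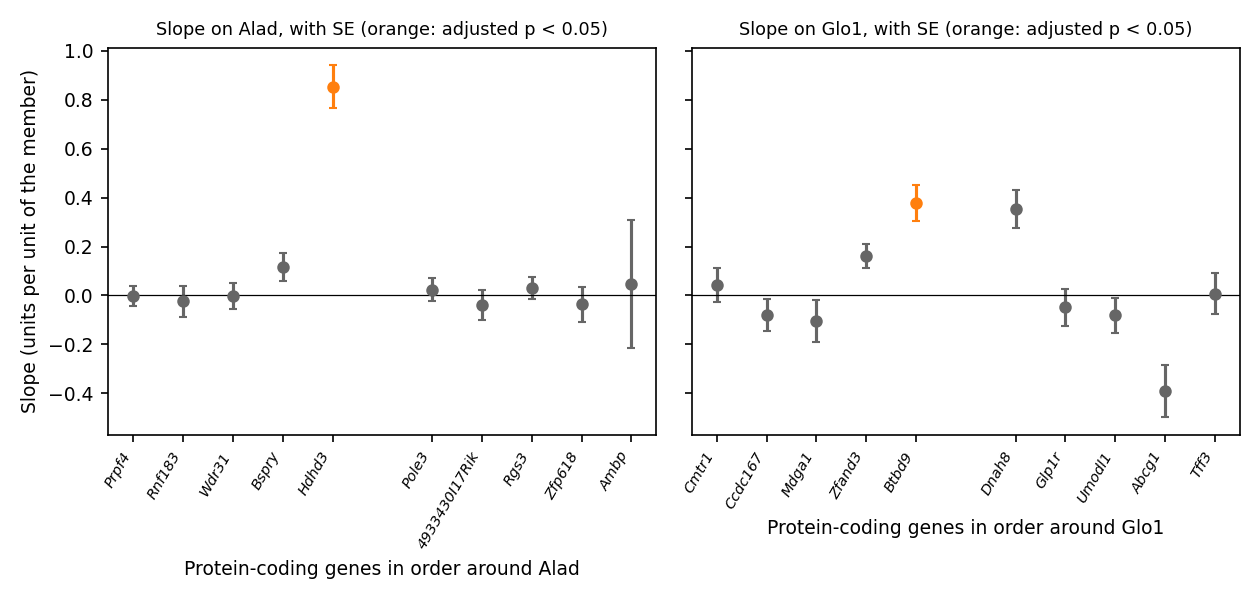
Slopes in limma (vertical axis, units per unit of the central gene, bars are SE) of the 5 protein-coding genes on each side of *Alad* (left) and *Glo1* (right), in gene order. *Hdhd3* at 0.85 and *Btbd9* at 0.38, in orange, were the ones with an adjusted *p* under 0.05, and *Dnah8* at 0.35 was not.

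*Glo1* was also higher in DBA/2J, and fewer strains lay on that side. It measured 10.28 units in C57BL/6J and 10.96 in DBA/2J, a difference of 0.684 that exceeded 93.3% of all probe sets. The BXD strains ranged from 9.74 in BXD66 through a median of 10.28 to 11.16 in BXD56. The strains above the midpoint of 10.62 were BXD50, BXD56, BXD68, BXD69, BXD80, BXD98, BXD99 and BXD103, between 10.75 and 11.16. These 8 strains were 22.9% of the 35 (exact interval 10.4% to 40.1%). The gap at the midpoint was 0.128 units or 8.98% of the range, too narrow for a clean split, and BXD101 at 10.62 lay just under the midpoint. All 8 strains on the DBA/2J side for *Glo1* were on that side for *Alad* as well, as were 20 of the other 27, and the genes lie on different chromosomes.

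*Btbd9*, which encodes a BTB-domain protein, and *Dnah8*, a dynein heavy chain of cilia and sperm tails, are the direct neighbours of *Glo1*. *Btbd9* measured 9.03 units in C57BL/6J and 9.88 in DBA/2J, and 9.05 to 9.95 over the BXD strains. All 8 strains above for *Glo1* were above for *Btbd9*, but so were 14 others, so 21 of 35 strains shared a side. *Dnah8*, listed on the array as *Dnahc8*, was below background in every strain at 6.77 ± 0.20 units (SD, *n* = 35), and its parents, at 6.71 and 6.87, differed by 0.157 units, less than the median probe set. Its side matched that of *Glo1* in 32 of 35 strains, with no clear parental step behind the midpoint. Over all strains *Glo1* correlated with *Btbd9* (*r* = 0.683, rho = 0.502, two-sided permutation *p* = 1e-05, the smallest that 100000 permutations can give, adjusted *p* = 8e-05 over 8 relations and 0.0189 for rho, *n* = 35). Without BXD56 and BXD103, the strains farthest from the *Glo1* median, *r* was 0.635. For *Dnah8*, *r* was 0.638 and rho 0.449 (permutation *p* = 7e-05, adjusted *p* = 2.8e-04 for *r* and 0.0304 for rho), and *r* was 0.681 without the same strains. Neither relation was detectable within the sides of the *Glo1* midpoint. These sides were set by *Glo1* itself, so each holds only a part of its spread, which by itself weakens *r*. Among the 27 strains below, *r* with *Btbd9* was 0.0417 (permutation *p* = 0.836) and with *Dnah8* 0.171 (permutation *p* = 0.386). Among the 8 strains above, the values were 0.0555 (exact permutation *p* = 0.888) and -0.393 (exact permutation *p* = 0.341). In these 8 strains rho was 0.357 with *Btbd9* and -0.619 with *Dnah8*. Without BXD69 and BXD56, *r* was 0.518 and -0.105, so 8 strains are too few to show whether a relation is absent within that side.

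The transcripts that followed *Glo1* were few and lay mostly on its own chromosome. In limma 10 of 41154 probe sets (0.0243%) passed, 8 higher and 2 lower with *Glo1*. Of these, 9 lay on chromosome 17 (90.0%), which holds 4.88% of all located probe sets. *Btbd9* was higher by 0.38 ± 0.07 units per unit (limma adjusted *p* = 0.0353), and *Dnah8* had 0.35 ± 0.08 and did not pass (limma adjusted *p* = 0.124). Of the 5 genes on each side of *Glo1*, *Btbd9* was the 1 that passed. *Abcg1*, 4 genes away, had a slope of the opposite sign, -0.39 ± 0.11, and did not pass (limma adjusted *p* = 0.320). *Zfand3*, just beyond *Btbd9*, had 0.16 ± 0.05 and did not pass either (limma adjusted *p* = 0.424). The other called transcripts of chromosome 17 lay farther off. Both probe sets of *9030025P20Rik*, 312 genes away, had slopes of 1.57 ± 0.25 and 1.36 ± 0.23 (limma adjusted *p* = 0.00816 and 0.0127). *Ermard*, 308 genes away and linked to the endoplasmic reticulum membrane, had 0.92 ± 0.17. *Unkl*, a zinc finger gene 124 genes away, had 0.99 ± 0.16, and *D330041H03Rik* had 0.77 ± 0.14 (limma adjusted *p* = 0.0171). *H2-Ea-ps*, an MHC class II gene, ranged from 6.66 to 13.62 units over the strains, with 7.55 in C57BL/6J and 12.14 in DBA/2J, and had a slope of 4.37 ± 0.80 (limma adjusted *p* = 0.0196). *BC051142* on the same chromosome fell with *Glo1* at -0.42 ± 0.07. *Mir665*, the 1 called transcript elsewhere, lies on chromosome 12 and had -0.35 ± 0.07.

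These calls rested on few strains. Without BXD56 and BXD103, the strains farthest from the median, 0 transcripts passed in limma, and 2109 had an unadjusted *p* under 0.05. Leaving out 1 strain at a time gave 2 to 14 calls, with 2 without BXD56, 3 without BXD80, 4 without BXD103, and 5 without BXD50 or BXD99. The genes that work beside glyoxalase 1 did not pass the test either. None of 10 measured genes of methylglyoxal removal passed in limma, including *Hagh*, the glyoxalase that takes over the product of *Glo1* (slope -0.12 ± 0.06, limma adjusted *p* = 0.619), and *Akr1b3*, an aldose reductase (-0.18 ± 0.11). Their median slope was -0.02, beside -0.01 over all probe sets. Of the marker lists, the liver mean fell as *Glo1* rose by rank (rho = -0.503, two-sided permutation *p* = 0.00248, adjusted *p* = 0.0196 over 25 relations, *n* = 35) but not by *r* (-0.140, permutation *p* = 0.424, adjusted *p* = 0.802). Without BXD70 *r* was -0.520, and without BXD70 and BXD66 it was -0.444. Outside BXD70 the liver mean was at most 8.0 units, beside the background limit of 7.94 units. Of the 11 liver genes 4 had a mean above background, and 0 passed against *Glo1* in limma.

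For *Nnt* the parents lay close together, and the strains had no gap at the parental midpoint but a wide one above both parents. C57BL/6J, the parent with the deletion, measured 9.27 units and DBA/2J 9.32, a difference of 0.052 that exceeded 15.8% of all probe sets. The BXD strains ran from 8.36 in BXD95 through a median of 9.17 to 10.12 in BXD83, and all 35 were above background. Above the midpoint of 9.29 lay 14 strains and below it 21 (40.0% above, exact interval 23.9% to 57.9%). The parental difference was less than the median of 0.182 units over all probe sets, so neither side stands for a parent. The interval, like those of the other genes, takes the midpoint as fixed. With quantile normalization 15 strains were above, with median centring 13 and with muscle regressed out 18. The gap at the midpoint was 0.022 units, or 1.25% of the range. The widest gap with at least 5 strains on each side lay elsewhere, between 9.53 and 9.86. This gap was 18.7% of the range, with 5 strains above it. It was as wide as a clean split requires, but both parents fell below it. The widest such gap was 15.3% of the range with quantile normalization and 16.1% with median centring. With muscle regressed out it was 10.4%, less than a clean split requires. How many of all probe sets have so wide a gap is not given here.

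*Nnt* went with the amount of skeletal muscle transcripts in the pools. Against the mean of 9 muscle genes, *r* was 0.701 and rho 0.649 (*n* = 35, two-sided permutation *p* = 1e-05, the smallest possible, adjusted *p* = 2.5e-04 over 25 relations for both), and *r* was 0.635 without BXD65 and BXD95. Against 6 macrophage genes *r* was 0.439 and rho 0.364. This relation passed for *r* (permutation *p* = 0.0085, adjusted *p* = 0.0425) but not for rho (permutation *p* = 0.0331, adjusted *p* = 0.122), and *r* was 0.329 without the farthest pair. In these bulk samples more muscle cells and more RNA per cell cannot be told apart.

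**Figure D4:**
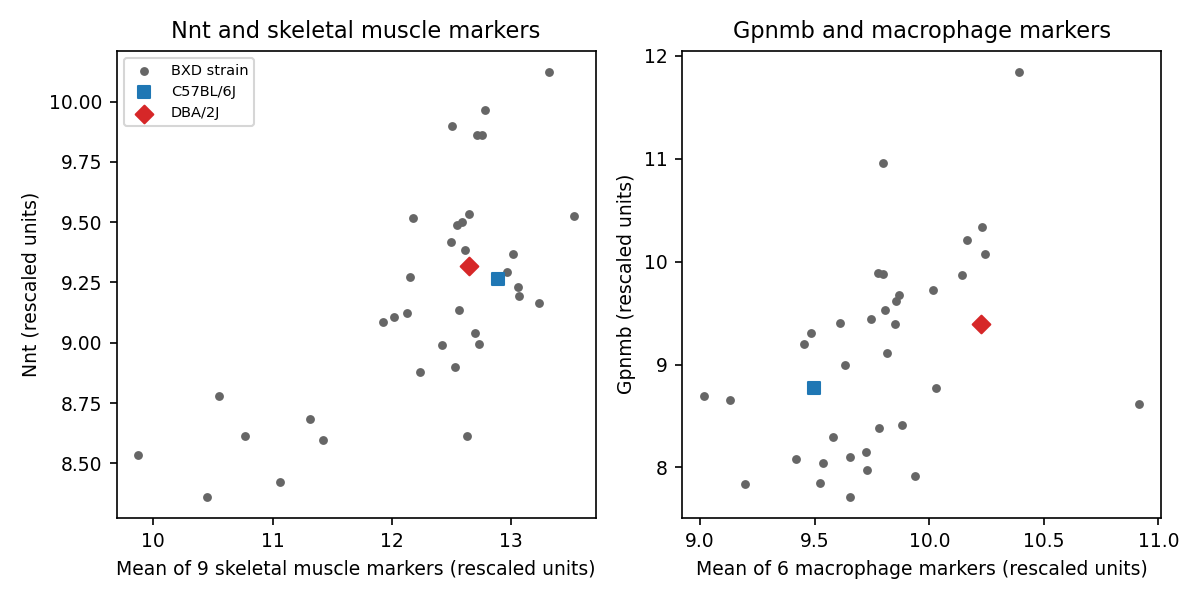
*Nnt* against the mean of 9 skeletal muscle genes (left) and *Gpnmb* against the mean of 6 macrophage genes (right), both axes in rescaled units, with 1 point per BXD strain and both parents marked. *Nnt* rises with the muscle mean (*r* = 0.701) and *Gpnmb* with the macrophage mean (*r* = 0.462), with BXD69 highest in *Gpnmb* at 11.84 units.

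In limma 596 of 41154 probe sets (1.45%) followed *Nnt*, 486 higher and 110 lower. All 9 listed muscle genes were higher, with a median slope of 1.31 units per unit of *Nnt* beside -0.006 over all probe sets. *Ckm*, muscle creatine kinase, had a slope of 1.30 and *Myh4*, a fast myosin heavy chain, 1.34. The lowest *p* values belonged to *Twf2*, an actin-binding twinfilin (0.79 ± 0.10, limma adjusted *p* = 7.02e-05), *Myl3* (1.33 ± 0.17) and *Tnnc1* (1.57 ± 0.21). *Myl3* and *Tnnc1* encode a myosin light chain and a troponin of slow and cardiac muscle. *Kcnj2*, an inward rectifier potassium channel, had 1.13 ± 0.16 and *Nfatc2*, a calcium-regulated transcription factor, 0.38 ± 0.05. Among the lower transcripts were *Dbt* (-0.38 ± 0.07, limma adjusted *p* = 0.00102) and *Hibadh* (-0.21 ± 0.04), mitochondrial enzymes of branched-chain amino acid breakdown. *Serp1*, of the endoplasmic reticulum, had -0.26 ± 0.05, *Hdhd2* -0.33 ± 0.07 and *BC013529* -0.27 ± 0.05. With the muscle mean as a further covariate 0 transcripts passed in limma, and 2506 had an unadjusted *p* under 0.05.

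The genes of mitochondrial NADPH supply and peroxide removal, with 1 exception, did not pass the test against *Nnt*. Of 18 listed genes 0 were higher and 1 was lower in limma, *Sod2*, the mitochondrial superoxide dismutase, at -0.17 ± 0.04 (adjusted *p* = 0.0235). *Idh2*, another source of mitochondrial NADPH, had a slope of 0.08 ± 0.08, *Glud1* -0.18 ± 0.07 and *Txnrd2*, which spends NADPH on thioredoxin, -0.07 ± 0.05, and none of these passed. The list's median slope was -0.09. Of the called transcripts with a known place, 4.34% were on chromosome 13 with *Nnt*, as were 3.78% of all located probe sets. *Mrc1*, the mannose receptor, was the 1 of 6 macrophage genes that passed (0.45 ± 0.12, limma adjusted *p* = 0.0388).

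*Hc* was dim and came above background on 1 array. It measured 6.58 units in C57BL/6J and 7.71 in DBA/2J, the parent that lacks the protein, both under the limit of 7.94. The BXD strains ran from 6.32 in BXD43 through a median of 6.76 to 6.97 in BXD87, and BXD70 stood apart at 8.47. BXD70 was therefore the 1 strain above the midpoint of 7.15 (2.86%, exact interval 0.0723% to 14.9%), and the gap of 1.51 units was 70.1% of the range. The parental difference of 1.137 units is one between values that were both below background. The same arrays held the high liver transcripts. *Alb*, serum albumin, measured 14.96 units in BXD70 and 13.93 in DBA/2J, against 8.76 in C57BL/6J, a BXD median of 7.85 and 11.16 in BXD66, the next strain, where *Hc* was 6.90. The part of liver transcripts in the parental difference of *Hc* was not tested.

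**Figure D5:**
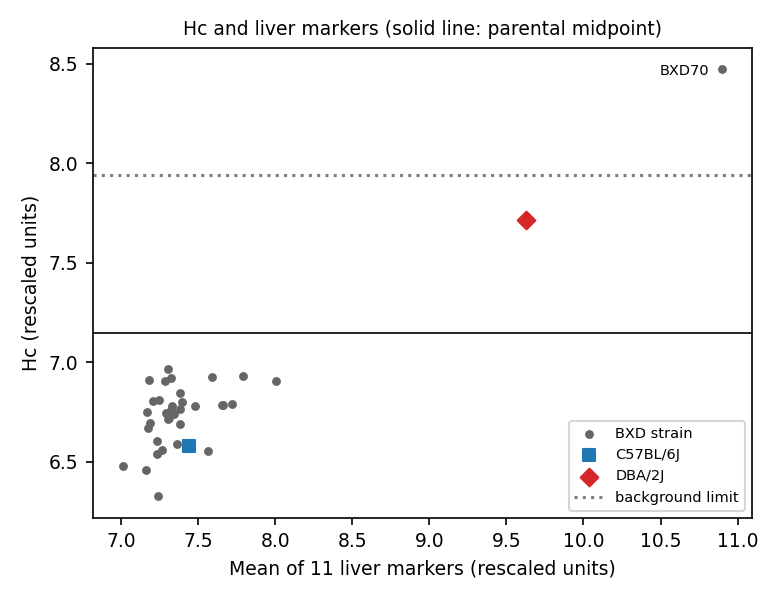
*Hc* (vertical axis) against the mean of 11 liver genes (horizontal axis), both in rescaled units, with 1 point per BXD strain, both parents marked, a solid line at the parental midpoint of *Hc* and a dotted line at the background limit. BXD70 and DBA/2J lie apart at liver means of 10.90 and 9.63, and the other strains lie at or under 8.0.

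The relation of *Hc* to liver transcripts leaned on BXD70. Over 35 strains *r* with the liver mean was 0.907 and rho 0.487 (two-sided permutation *p* = 1.1e-04, adjusted *p* = 0.00137 over 25 relations and 0.0196 for rho), and *r* was 0.429 without BXD70 and 0.391 without the farthest pair of strains. In the strains other than BXD70 the liver mean was at most 8.0 units, beside the background limit of 7.94 units. *Hc* also went with the mean of 9 brown fat genes by *r* (0.487, permutation *p* = 0.0011, adjusted *p* = 0.00917) but not by rho (0.413, permutation *p* = 0.0141, adjusted *p* = 0.0704), and *r* was 0.387 without BXD70 and 0.317 without BXD70 and BXD87. Of these 9 genes 0 passed against *Hc* in limma. Their slopes ran from -0.01 for *Cox8b* to 1.18 for *Elovl3*, with a median of 0.06. In limma 250 probe sets (0.607%) followed *Hc*, 237 higher and 13 lower, and 0 passed without BXD70, where 4128 had an unadjusted *p* under 0.05. With the liver mean as a further covariate 0 passed in limma as well, and 1905 had an unadjusted *p* under 0.05. Of the 11 liver genes 10 were higher, all but *Apoc3*, including *Alb* at 3.58 ± 0.48 units per unit (limma adjusted *p* = 3.26e-06) and the lipoprotein gene *Apoa1* at 1.98 ± 0.17. The lowest *p* values went to *Hpx*, the haem-binding hemopexin (1.82 ± 0.13, limma adjusted *p* = 2.94e-11), *G6pc*, which releases glucose (1.16 ± 0.09), *Mat1a*, which makes S-adenosylmethionine (1.59 ± 0.13), *Fga*, a fibrinogen chain (1.16 ± 0.09), and *Cyp2c67*, a cytochrome P450 (1.78 ± 0.15). Lower with *Hc* were *Poc5*, *Aup1*, *Rdm1*, *4931414P19Rik* and *Stx8*, with slopes from -0.64 to -0.26.

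Of the 16 complement genes 3 were higher with *Hc*, *C9*, *C8a* and *C8b*. They belong to the membrane attack complex that C5 starts, and their means over the strains, 7.30, 7.63 and 7.25 units, were below background. *C9*, its pore-forming component, had a slope of 1.37 ± 0.13 (limma adjusted *p* = 1.43e-09), *C8a* 0.68 ± 0.10 (1.46e-05 in limma) and *C8b* 0.61 ± 0.11 (0.00122 in limma). The other three genes of this complex did not pass: *C6* had 0.37 ± 0.11 (limma adjusted *p* = 0.249), *C8g* 0.28 ± 0.17 (limma adjusted *p* = 0.820) and *C7* -0.27 ± 0.21 (limma adjusted *p* = 0.881). *C3*, the central component, had 0.17 ± 0.12, and *Cfd*, the fat-secreted factor D, had -0.20 ± 0.30. The median slope of the 16 was 0.12, beside -0.004 over all probe sets. These 3 calls came from the fit that includes BXD70, and without it none was left.

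*Gpnmb* had the widest range of the 6 genes and no gap at the midpoint. It measured 8.77 units in C57BL/6J and 9.40 in DBA/2J, the parent with the premature stop. The BXD strains ran from 7.72 in BXD101 through a median of 9.11 to 11.84 in BXD69, with BXD85 next at 10.96. This range of 4.13 units was wider than that of 99.7% of all probe sets, and 31 of 35 strains were above background. The strains divided into 18 above and 17 below the midpoint of 9.08 (51.4% above, exact interval 34% to 68.6%), with a gap of 0.122 units or 2.96% of the range. Values of the strains thus passed both parents by a wide margin on either side.

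*Gpnmb* rose with the mean of macrophage transcripts. With the mean of 6 macrophage genes *r* was 0.462 and rho 0.550 (*n* = 35, two-sided permutation *p* = 0.00557, adjusted *p* = 0.0348 over 25 relations and 0.01 for rho), and *r* was 0.637 without BXD61 and BXD48, the extremes of the macrophage mean. DBA/2J was also higher in this mean, at 10.22 against 9.50 in C57BL/6J. In limma 135 probe sets (0.328%) followed *Gpnmb*, 76 higher and 59 lower. *Cd93*, a receptor of endothelial and myeloid cells (0.23 ± 0.04, limma adjusted *p* = 0.0212), *C5ar1*, the receptor of the C5a fragment (0.23 ± 0.04), and *Lilrb4*, an inhibitory receptor of myeloid cells (0.41 ± 0.08), were among the higher ones, with *Npr1*, the natriuretic peptide receptor (0.15 ± 0.03), and *LOC100505027* (0.18 ± 0.03). Lower were *Stxbp2*, a vesicle fusion gene (-0.31 ± 0.05, limma adjusted *p* = 0.00655), the lipid enzymes *Acsl3* (-0.22 ± 0.04) and *Mogat1* (-0.18 ± 0.03), the phosphatase *Acp5* (-0.16 ± 0.03) and the chaperone regulator *Bag1* (-0.13 ± 0.03).

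Of 20 measured genes listed with *Gpnmb*, 2 were higher, *Lyz2*, macrophage lysozyme (0.32 ± 0.07, limma adjusted *p* = 0.0393), and *Trem2*, a lipid receptor of macrophages (0.27 ± 0.06, limma adjusted *p* = 0.0436). *Itgax*, the integrin CD11c, had 0.30 ± 0.07 and did not pass (limma adjusted *p* = 0.0585), nor did *Cd68* at 0.32 ± 0.08 (limma adjusted *p* = 0.0725). *Ctsb*, *Ctsd* and *Cd163* had negative slopes of -0.04 ± 0.02, -0.02 ± 0.02 and -0.01 ± 0.05, and none of these passed. Of the 6 genes in the macrophage mean, *Lyz2* was the 1 that passed. The pigment cell genes *Pmel* and *Mlana* had slopes of 0.006 ± 0.03 and -0.02 ± 0.03, and *Mitf*, a regulator of *Gpnmb*, 0.05 ± 0.03. *Elovl3*, a fatty acid elongase of active brown fat, was the 1 of 9 brown fat genes that passed and was lower (-0.78 ± 0.16, limma adjusted *p* = 0.0230). With the macrophage mean as a further covariate 0 transcripts passed in limma, and 3760 had an unadjusted *p* under 0.05. None passed without BXD69 and BXD85 either, where 4169 had an unadjusted *p* under 0.05.

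*Klrd1* was below background in all 35 strains and in both parents. It measured 6.92 units in C57BL/6J and 6.85 in DBA/2J, the parent that lacks CD94. The BXD strains ran from 6.39 in BXD83 through a median of 6.93 to 7.42 in BXD84, with 22 above and 13 below the midpoint of 6.88. Its SD of 0.21 units was that of the median probe set. In limma 0 probe sets (0%) followed it, with 1934 at an unadjusted *p* under 0.05. *Klrc1*, its partner in the receptor, and *Klrk1*, a related receptor of natural killer cells, had means of 6.52 and 5.94 units, and their slopes were 0.40 ± 0.19 and 0.50 ± 0.19 (both limma adjusted *p* = 0.9998). Of 21 measured natural killer and T cell genes 5 were above background and 0 passed. *Klrd1* did not go with the mean of 9 lymphocyte genes beyond the spread of the strains (*r* = 0.239, permutation *p* = 0.167, adjusted *p* = 0.418 over 25 relations). *Klrd1* and *Gpnmb* share chromosome 6 with 640 genes between them, and 21 of 35 strains were on the same side for both.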

How the data were processed

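Values for 41345 probe sets on 37 arrays were deposited as scores, since the authors had set every array to a mean of 8 and an SD of 2. The labels name Affymetrix Expression Console, and the summary method, log base and build are not given in the sources used here. Tests planned on log2 values were run on these scores. After 190 array controls were left out, 41155 probe sets remained, 28392 of them with a gene name. Strains were assigned from the strain names in the labels. Arrays have no read depth, so the number of strains and the background limit the precision.

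Transcripts that follow a gene were tested with limma 3.58.1 (lmFit, eBayes) in R 4.3.3 over 35 strains, with Benjamini-Hochberg adjustment and a threshold of 0.05. Correlations are Pearson's *r* and Spearman's rho, two-sided, with 100000 permutations, exact for fewer than 10 strains, adjusted over 25 relations with marker lists and 8 with neighbours. The other steps used scipy 1.17.1 and numpy 2.4.6 in Python 3.11.15, with pandas 2.3.3 for tables and matplotlib 3.10.9 for plots. On simulated data limma recovered 100% of 200 transcripts that followed *Nnt* by 1.5 SD per SD with 8 false calls, and 3.5% at 0.5 SD. The simulated transcripts varied independently, whereas sets such as the muscle genes move together in the real data. The number of false calls therefore need not carry over.

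Named are the 6 genes, their known neighbours, listed genes that passed and up to 5 called probe sets in each direction with the lowest *p*; other listed genes, *H2-Ea-ps*, *Alb* and neighbouring genes serve as context and were chosen with values in view. The 6 genes, the lists and the tests were chosen with earlier results of these data known. RefSeq promoters were found for 6 of 9 genes looked up, and for *Alad* the table lists 2 starts, of which 1 is shown. Alternatives were quantile normalization, median centring, both parents included, the 2 farthest strains or dim transcripts left out, ranks, the widest gap and a muscle covariate. The widest gap was sought only where at least 5 strains lay on each side.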

Additional observations from a re-analysis of the deposited data

How the results depend on the processing

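Of 98 results under alternatives, 81 kept their direction and stayed within the spread or within 1.5 times the count. The parental differences of all 6 genes did so under quantile normalization, median centring and muscle regressed out, as did the midpoint counts under these settings. The small difference of *Nnt*, 0.052 units, ran from 0.032 with median centring to 0.142 with muscle regressed out, all within the SD over strains. The rest are counts. At the widest gap with at least 5 strains on each side, 5 strains were above for *Nnt* and 27 for *Hc*. For *Hc* that gap was only 0.064 units, or 2.98% of the range. Without BXD70 no strain was above the midpoint for *Hc*. Without the 2 farthest strains limma called 332 transcripts for *Nnt*, 0 for *Glo1*, 0 for *Hc* and 0 for *Gpnmb* (the 0 counts had 2109, 3618 and 4169 at an unadjusted *p* under 0.05). With ranks it called 5 for *Glo1*, 0 for *Alad* and 0 for *Hc* (3946 and 3269 unadjusted). With dim transcripts left out it called 46 for *Hc* and 366 for *Gpnmb*. With the muscle covariate it called 0 for *Nnt* and 2 for *Alad*. Chosen after seeing the data were the liver covariate (0 for *Hc*, 1905 unadjusted), the macrophage covariate (0 for *Gpnmb*), muscle regressed out and each strain left out in turn. The cause of these shifts was not tested.

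Leaving out 1 strain at a time gave 421 to 721 calls for *Nnt*, 2 to 14 for *Glo1*, 1 to 3 for *Alad*, 0 to 261 for *Hc*, 16 to 380 for *Gpnmb* and 0 for *Klrd1*. For *Hc* BXD70 gave the 0. For *Alad* it was 3 without BXD79 and 2 without BXD97. For *Gpnmb* it was 380 without BXD61, 290 without BXD75, 263 without BXD68, 206 without BXD66, 30 without BXD45 and 16 without BXD85. It was also 40 to 84 without BXD43, BXD51, BXD55, BXD56, BXD69, BXD79, BXD80, BXD84, BXD89, BXD92, BXD95, BXD97 or BXD103. Averaging over several probe sets was not run, because each gene has 1. No paired analysis was possible because each strain has 1 array. The limits are 1 pooled array per strain, an unknown log base, and *Hc* and *Klrd1* under background.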
